A study of Mus musculus with 10 samples.

Results

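The genes of cholesterol and fatty acid synthesis were compared between single Bergmann glial cells of P6 and P30 mice. They were taken from a list of 33 genes: 19 of the sterol branch (18 enzymes and the sterol carrier Stard4), 9 of the fatty acid branch and 5 regulators. A gene's value was the mean log2 ratio over its probe sets with a value in every cell, if the array annotation paired the probe set with that gene alone. Of the 33 genes, 32 had such a value, through 74 probe sets, among 17919 genes measured in all. The exception was Acat2, which makes the acetoacetyl-CoA from which the pathway starts. No probe set was paired with it alone in the annotation used, and it was not analysed here.

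The cells came from mice of a GFAP-GFP reporter line, in which the promoter of the astroglial gene Gfap drives GFP, so a cell could be picked only if that promoter was active. Dissociated cells of the mid-sagittal cerebellum were recognised by their fluorescence and shape and picked one at a time. The authors kept those whose cDNA held all tested astroglial markers, among them Gfap and Slc1a3, and no tested neuronal marker. Of these, the 5 at P6 and 5 at P30 with the best quality control were used. The amplified cDNA of each was hybridised to 1 Affymetrix whole-genome mouse expression array. The genotype was the same at both ages. The sample titles call the cells of an age biological replicates. Neither the labels nor the methods name the animal a cell came from, so an age has 1 sample in effect. Tests and standard errors are therefore left out, and every SD or range describes the spread of 5 cells. With 1 array per cell, this number of arrays limits the precision of each value.

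Cholesterol is built from acetyl-CoA. The mevalonate steps make isoprenoid units, the squalene steps join and close them into lanosterol, and the late steps remodel lanosterol into cholesterol. The enzyme genes are switched on together by the SREBP transcription factors, which SCAP carries out of the endoplasmic reticulum when sterol is low and which the INSIG proteins hold back when sterol is high. Astroglia are known as a main source of the cholesterol that growing neurons and synapses take up, and of polyunsaturated fatty acids for their membranes.

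The deposited values were centred on each probe set by the authors, so they compare cells with one another and are not expression levels. In 69.6% of the complete probe sets the median P6 cell stood at 1 (tolerance 0.0015), so that a log2 ratio of 0 is about the median P6 cell. A difference between ages does not depend on that divisor, except where a ratio stands at the lower limit of 0.01, which is fixed relative to it. Ratios of different genes cannot be ranked by level. A fold is the ratio of geometric means, P6 and P30, and the size rule was 3-fold. A fold is given as "at least" where ratios at the lower limit of 0.01 stand only at the lower age. The medians of the arrays lay between -0.46 and 0 on the log2 scale, with the lowest in P30 cell 5. Median scaling of the arrays moved the median difference over all genes from 0.05 to -0.11, and scaling to the hybridisation spikes moved it to 0.33. No cells were duplicates, the highest correlation between 2 cells being 0.445.

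The label was set against markers of the cell types that the dissociated tissue holds, with the limit that ratios show only differences between cells. The cells had been selected on some of the astroglial and neuronal markers, so those lists are no independent check of the label. The 10 astroglial markers had a median difference, P6 minus P30, of -0.46, and none differed by over 3-fold. Slc1a3, the glial glutamate transporter, had a mean log2 ratio of -0.15 ± 0.39 at P6 and of 0.59 ± 0.78 at P30 (SD, n = 5 cells each). Gfap itself spread widely, with -2.51 ± 3.10 at P6 and -1.03 ± 1.96 at P30. Markers of neurons (8 genes, median difference -0.08), Purkinje cells (4 genes, 0.06), granule neurons (5 genes, 0.21) and microglia (6 genes, 0.37) had medians nearer to 0, and no gene of these lists differed by over 3-fold. The 8 oligodendrocyte markers had a median difference of -0.84, the farthest from 0 of these lists, and 1 of the 8 was higher at P6. Of them, 2 were over 3-fold higher at P30, beside 4.93% of all genes, including Mbp, which had values at the lower limit at both ages. Every P30 cell lay above every P6 cell in 1 of the 8, beside 1.41% of all genes. The median over the list lay between -0.38 and -0.16 in the P6 cells and between -0.44 and 1.19 in the P30 cells, highest in P30 cells 5 and 4 (0.87 in cell 4). The 8 endothelial and pericyte markers had a median difference of -0.40, and 2 were over 3-fold higher at P30, beside 4.93% of all genes. Their median reached 2.94 in P30 cell 5 against -0.88 to 0.10 in the other P30 cells. Whether these markers are absent cannot be read from ratios, and their part in the results below was not tested.

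The bases before the transcription start of a few genes are shown first, because genes of this pathway are known to be controlled together through promoter elements. They are taken from RefSeq (GRCm38.p6), 250 bases before a start, 5′ to 3′ on the gene's strand. Capitals mark CCAAT, the box bound by NF-Y, on either strand (read as ATTGG on the other), and in Hmgcs1 also the sterol regulatory element core TCACNCCAC. Hmgcs1 is shown as the member with that core. Idi1 and Nsdhl stand for the sterol genes that were higher at P6. Insig1 and Insig2 are the paired regulators that differed in opposite directions, and for Insig2 the start farthest upstream is shown, the only one of its 3 with CCAAT.

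Hmgcs1, chr13:119690101-119690350, plus strand: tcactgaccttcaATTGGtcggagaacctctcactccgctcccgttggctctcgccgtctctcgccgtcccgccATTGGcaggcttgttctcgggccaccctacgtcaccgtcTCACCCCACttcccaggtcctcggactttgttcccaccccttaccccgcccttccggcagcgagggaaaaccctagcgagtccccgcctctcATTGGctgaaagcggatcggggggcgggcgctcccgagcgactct
Idi1, chr13:8885356-8885605, plus strand: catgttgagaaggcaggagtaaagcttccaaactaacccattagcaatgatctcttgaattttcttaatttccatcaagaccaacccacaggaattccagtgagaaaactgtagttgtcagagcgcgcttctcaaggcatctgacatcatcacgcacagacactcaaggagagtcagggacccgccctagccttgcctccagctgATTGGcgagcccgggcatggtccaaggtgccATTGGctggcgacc
Nsdhl, chrX:72918271-72918520, plus strand: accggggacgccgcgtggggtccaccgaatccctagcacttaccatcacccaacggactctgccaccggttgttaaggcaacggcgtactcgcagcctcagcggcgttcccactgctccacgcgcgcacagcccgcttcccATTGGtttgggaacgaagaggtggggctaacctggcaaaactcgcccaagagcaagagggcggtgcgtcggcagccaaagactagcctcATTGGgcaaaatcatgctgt
Insig1, chr5:28071162-28071411, plus strand: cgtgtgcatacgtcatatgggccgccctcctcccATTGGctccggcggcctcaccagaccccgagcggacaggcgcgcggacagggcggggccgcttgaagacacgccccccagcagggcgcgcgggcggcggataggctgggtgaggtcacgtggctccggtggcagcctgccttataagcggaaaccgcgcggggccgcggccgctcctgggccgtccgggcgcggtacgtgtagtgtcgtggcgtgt
Insig2, chr1:121332590-121332839, minus strand: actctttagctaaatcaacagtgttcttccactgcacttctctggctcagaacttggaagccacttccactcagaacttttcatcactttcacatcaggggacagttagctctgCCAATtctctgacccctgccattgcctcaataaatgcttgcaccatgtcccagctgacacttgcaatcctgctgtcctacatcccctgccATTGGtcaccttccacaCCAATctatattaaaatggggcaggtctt

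Promoters were at hand for 26 of the 33 members, with 34 starts. CCAAT was found before 14 of 18 starts of the sterol branch (77.8%), 5 of 10 of the regulators and 2 of 6 of the fatty acid branch (33.3%), beside 33.8% of 32851 starts in the whole table and 34.6% of the 17869 starts of measured genes. Among the 15 sterol genes with a promoter, 14 had it before at least 1 start, beside 37.5% of all genes with a promoter and 39.3% of measured ones. The GC box GGGCGG, bound by Sp1, was found before 15 of 18 sterol starts (83.3%), 7 of 10 of the regulators and 2 of 6 of the fatty acid branch (33.3%), beside 32.7% of all starts and 48.7% of those of measured genes. The E-box CACGTG was found before 6 of 34 member starts (17.6%), beside 6.02% of all starts and 7.42% of those of measured genes. The core TCACNCCAC was found before 1 of 34, as TCACCCCAC beginning at position -137 from the Hmgcs1 start, beside 1.05% of all starts. Both strands were searched, and no CCAAT match overlapped another of these motifs. A match is a run of letters in a window, not a bound site, and functional sterol regulatory elements often depart from this core.

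Most sterol genes were higher at P6. Of 18 measured, 15 had a higher mean at P6, against 52.4% of all genes, and their median difference was 0.95 on the log2 scale, against 0.05 over all genes. Over the size rule at P6 were 6 of 18 sterol genes, namely Idi1, Fdps, Tm7sf2, Msmo1, Nsdhl and Stard4, and 3 of 9 fatty acid genes, beside 9.39% of all genes. No regulator was over 3-fold higher at P6. At P30, no sterol gene was over 3-fold higher, and the 2 members that were, Insig2 and Scd2, stand beside 4.93% of all genes. By probe sets, 11 of 41 sterol sets were over 3-fold higher at P6, beside 12.3% of all single-gene probe sets, and 0 of 41 at P30, beside 6.91%. Of the other members' sets, 4 of 24 of the fatty acid branch passed 3-fold towards P6 and 2 towards P30, and 4 of 9 of the regulators were over 3-fold higher at P30.

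**Figure D1:**
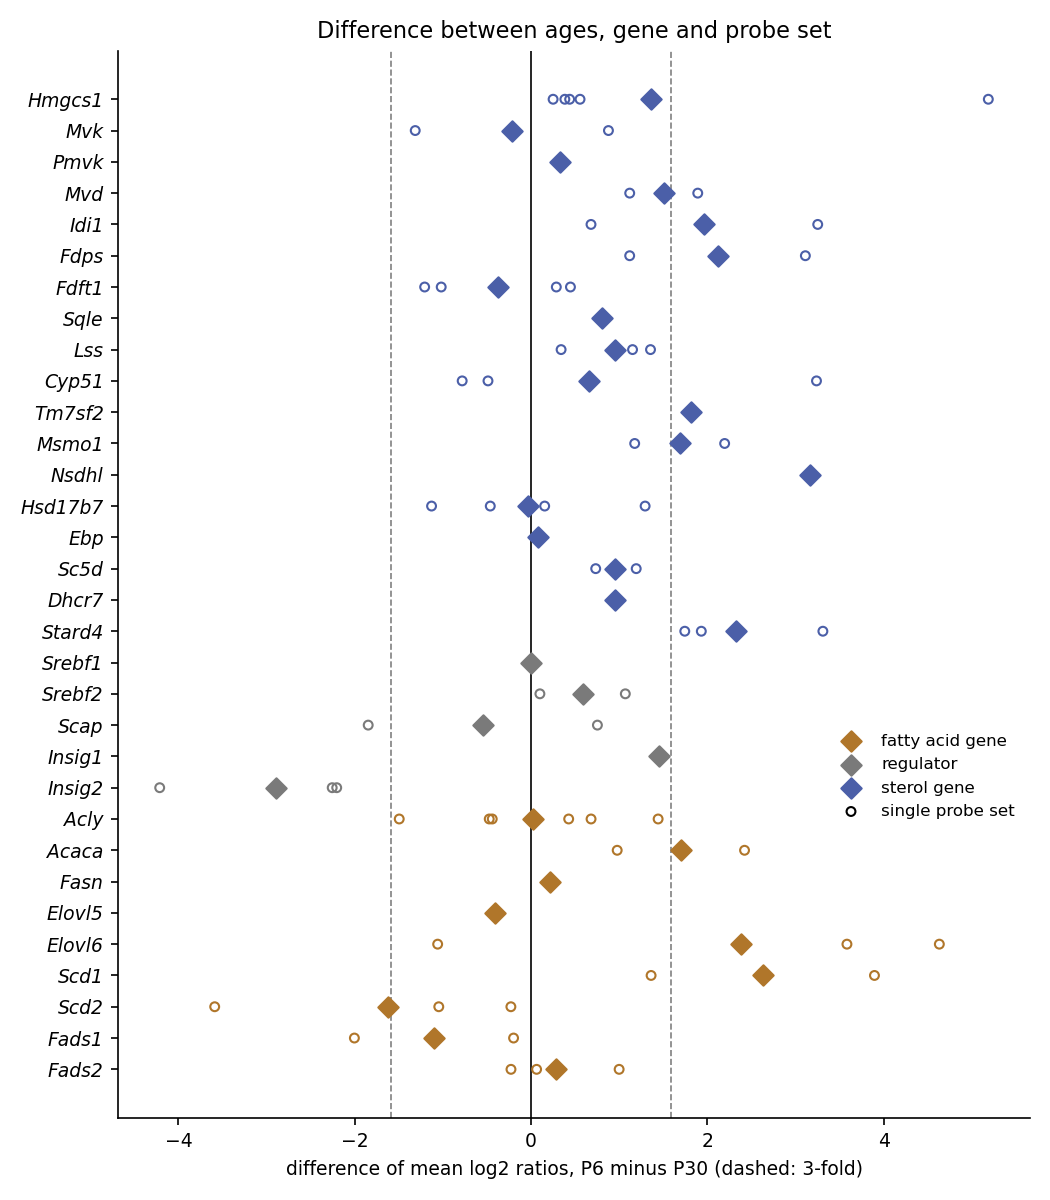
Difference between ages for the 32 measured members. The x axis is the mean log2 ratio at P6 less that at P30, and dashed lines mark 3-fold; diamonds are genes, coloured by branch, and open circles their single probe sets. Sterol genes lie mostly to the right of 0 with a median of 0.95, Insig2 lies farthest left at -2.89, and several genes have probe sets on both sides of 0.

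The sterol branch also set the single cells of the ages apart. The median over its 18 genes was 0.00, -0.26, 0.21, 0.00 and -0.41 in P6 cells 1 to 5, and -0.66, -1.08, -1.68, -1.33 and -1.04 in P30 cells 1 to 5. Every P6 cell was thus above every P30 cell, with a gap of 0.25 between the lowest P6 cell and the highest P30 cell. Over all genes the cell medians also shifted, with little overlap, from -0.20 to 0 in P6 cells and from -0.49 to -0.18 in P30 cells. With median scaling of the arrays the gap of the sterol branch was 0.27. The gap closed, to -0.091, once probe sets with a cell at the lower limit were left out. It narrowed to 0.081 with the median over the probe sets of each gene. Counted by gene, 3, 5, 1, 3 and 3 of the 18 genes lay below -1 in the P6 cells and 7, 9, 12, 10 and 9 in the P30 cells, beside 20.6% to 22.1% of all genes in P6 cells and 29.2% to 34.1% in P30 cells. P30 cell 3 was lowest and P30 cell 1 nearest to the P6 cells. The oligodendrocyte list was highest in P30 cells 4 and 5. Without these cells, a removal chosen after seeing the data, the median difference of the branch was 1.11. The part of oligodendrocyte RNA in the branch was not tested. Values at the lower limit moved with age too: the sterol probe sets held 0 at P6 and 13 at P30 (6.34% of their P30 values), beside 1.07% at P6 and 1.73% at P30 over all complete probe sets. Without the probe sets that hold them, the median difference of the branch was 0.82. The limit is counted from about the median P6 cell, so the counts at the limit are not independent of the difference.

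**Figure D2:**
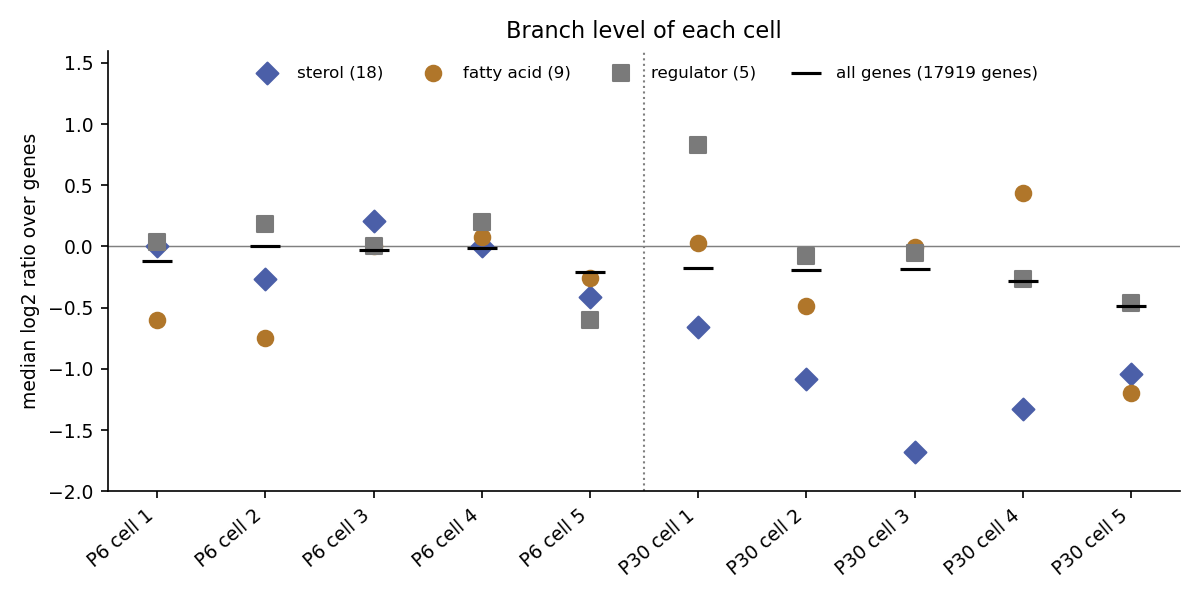
Median log2 ratio over the genes of each branch in each of the 10 cells (y axis), with P6 cells on the left and P30 cells on the right. Diamonds are the sterol branch (18 genes), circles the fatty acid branch (9), squares the regulators (5) and dashes all 17919 genes. The sterol branch lies between -0.41 and 0.21 in P6 cells and between -1.68 and -0.66 in P30 cells, while both other groups overlap between ages.

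Among the mevalonate enzymes, 5 of 6 measured had a higher mean at P6 and 2 were over 3-fold higher. Hmgcs1, which makes HMG-CoA and lies at chr13:119690351-119708260, had log2 ratios of -1.38, 0.10, 0.23, 0.25 and -0.89 in the P6 cells and -1.42, -1.52, -1.65, -1.77 and -2.15 in the P30 cells. Its ages did not overlap, and it was the only sterol gene of which this held, with P6 cell 1 just above P30 cell 1. In all, 2 of 32 members had every P6 cell above every P30 cell, beside 2.13% of all genes, and 0 had every P30 cell above every P6 cell, beside 1.41%. The separation of Hmgcs1 came from 1 of its 5 probe sets, in which all 5 P30 cells stood at the lower limit and the P6 cells had ratios of 0.012, 1.00, 1.40, 1.64 and 0.227. That probe set differed by at least 5.19, and the other 4 by 0.25 to 0.56 with overlapping cells. Hmgcs1 as a whole differed by 1.36 (at least 2.57-fold) and by 0.43 with the median over its probe sets.

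Idi1, which isomerises the isoprenoid unit, had log2 ratios of 1.20, -1.49, 0.00, 0.70 and -1.39 at P6 and -0.61, -0.01, -3.88, -3.19 and -3.14 at P30. P30 cells 3, 4 and 5 lay below all P6 cells, and P30 cells 1 and 2 lay among them. Its difference was 1.97 (at least 3.91-fold), from 1 probe set at no less than 3.25 and another at 0.68. Fdps, which makes farnesyl diphosphate, the branch point to sterols and to prenylated proteins, had -0.16, -1.62, 1.01, 0.36 and -0.51 at P6 and -0.91, -3.76, -3.78, -1.89 and -1.15 at P30. It differed by 2.12 (at least 4.33-fold), with probe sets at no less than 3.11 and at 1.12 and with P30 cells 2 and 3 lowest. Only P6 cell 2 overlapped the P30 cells.

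The other mevalonate enzymes did not reach 3-fold with all cells. Mvd, which decarboxylates mevalonate diphosphate, had means of -0.41 ± 1.83 at P6 and -1.92 ± 3.08 at P30, a difference of 1.51 that was smaller than the pooled SD of 2.53. At P30 it was split, with -1.90, -4.78 and -5.21 in cells 1 to 3 and 1.26 and 1.04 in cells 4 and 5. It passed 3-fold without P6 cell 2 (2.30), without P30 cell 4 (2.30) or 5 (2.24), and without both of the latter (3.55), and was at 0.79 and 0.68 without P30 cells 2 and 3. The mevalonate kinases Mvk and Pmvk differed by -0.22 and 0.33, less than the spread of their cells, and the 2 probe sets of Mvk differed in sign.

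Of the 3 squalene enzymes, none reached 3-fold. Sqle, the squalene epoxidase and a rate-limiting step, differed by 0.80, with -0.21 ± 0.47 at P6 and -1.01 ± 1.02 at P30. Lss, which closes the ring to lanosterol, differed by 0.95, and all 3 of its probe sets were higher at P6 (0.34 to 1.36). In 1 of them, at 1.15, P30 cell 3 stood at -6.33. The other P30 cells of that set lay between -1.33 and 0.67, beside -1.20 to 0.69 in the P6 cells. Fdft1, which joins farnesyl units to squalene, went the other way by -0.37, less than its spread, and its 4 probe sets lay between -1.21 and 0.45. By the mean over probe sets, neither Fdft1 nor Mvk thus shared the direction of the branch. With the least variable probe set both were higher at P6 (0.45 and 0.88), so their direction is unresolved.

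Among the 8 late enzymes, 7 had a higher mean at P6 and 3 were over 3-fold higher. Nsdhl, a dehydrogenase that helps remove the methyl groups at carbon 4 and lies at chrX:72918521-72958528, had a larger measured difference than the other members, some of which have only a lower bound. Its log2 ratios were -0.75, 0.00, 0.30, 0.61 and -0.90 at P6 and -0.49, -5.27, -3.94, -3.29 and -3.60 at P30. P30 cells 2 to 5 lay below every P6 cell, and P30 cell 1 lay among the P6 cells. The difference was 3.17 (9.001-fold), from 1 probe set with no value at the lower limit. Nsdhl stayed over 3-fold with each of the 10 cells left out in turn and under all 10 other alternatives.

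Msmo1, the oxidase that acts beside Nsdhl at carbon 4, had log2 ratios of -2.56, -4.60, 1.71, -2.67 and 0.48 at P6 and -5.61, -5.29, -1.42, -2.65 and -1.09 at P30. The ages overlapped broadly, and the difference of 1.69 (at least 3.22-fold) was smaller than the pooled SD of 2.36. Tm7sf2, a sterol reductase that acts at carbon 14, had 0.12, 0.76, 0.00, -0.20 and -0.42 at P6 and -5.49, 1.30, -4.48, 1.25 and -1.39 at P30. The P30 cells fell on either side of the P6 cells, with cells 2 and 4 above all of them. Its difference was 1.81 (3.51-fold) but 0.03 as a ratio of arithmetic means. Hsd17b7, the third enzyme of carbon 4 demethylation, differed by -0.04 and its 4 probe sets lay between -1.13 and 1.29.

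Other late steps had the direction of the branch at under 3-fold. Dhcr7, which makes cholesterol from 7-dehydrocholesterol, differed by 0.95 with a small spread, -0.25 ± 0.54 at P6 and -1.19 ± 0.52 at P30, and P6 cell 5 alone lay among the P30 cells. Sc5d, the desaturase before it, differed by 0.96 (at least 1.94-fold), and its 3 probe sets gave 0.73, 0.94 and at least 1.19. Cyp51, the lanosterol demethylase, differed by 0.66, but 1 probe set with 2 P30 cells at the lower limit was at no less than 3.24 and the other 2 were at -0.78 and -0.49. Without that set Cyp51 was at -0.63. Ebp, the sterol isomerase, differed by 0.08, with cells from -0.51 to 4.00 at P6 and from -2.32 to 4.22 at P30.

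Stard4, which carries cholesterol between membranes and is itself a sterol-regulated gene, had log2 ratios of 1.18, -0.44, 0.99, 1.05 and 0.06 at P6 and -1.996, -1.93, -1.71, -2.90 and -0.26 at P30. P30 cell 5 was the only P30 cell to overlap the P6 cells, through 1 probe set with a ratio of 6.44 there. All 3 probe sets were over 3-fold higher at P6 (1.74, 1.93 and 3.31), and the difference of the gene was 2.33 (5.02-fold). It was 1.51, under 3-fold, with the median over probe sets.

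**Figure D3:**
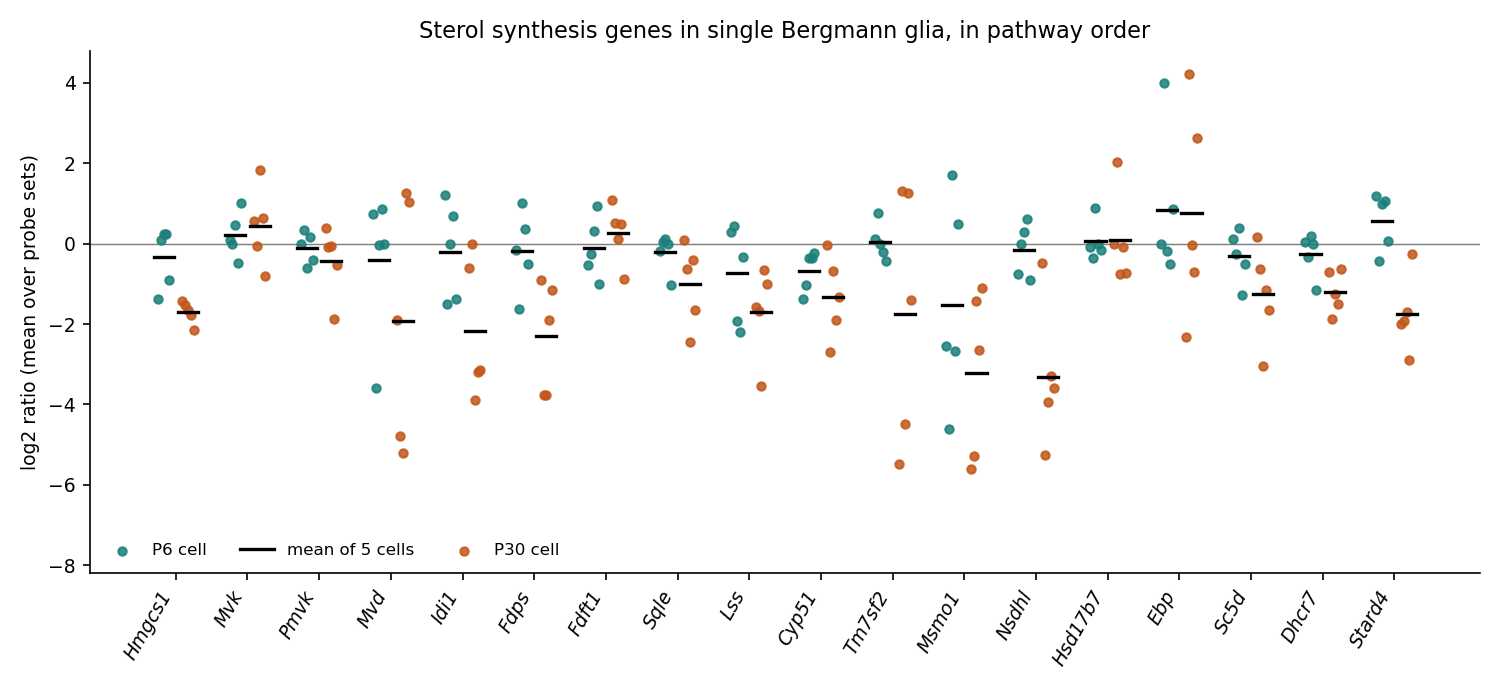
Log2 ratio of the 18 measured sterol genes in each cell (y axis), in pathway order with Stard4 last. Points are single cells, P6 on the left and P30 on the right of each gene, and bars are means of 5 cells. The P30 cells of Idi1, Fdps, Nsdhl and Stard4 lie mostly below the P6 cells, and those of Mvd, Tm7sf2 and Ebp spread over more than 6 log2 units.

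The regulators did not move as a group, with a median difference of -0.01. Srebf1 and Srebf2 encode the SREBP factors, the former known for fatty acid genes and the latter for sterol genes. Srebf1 had -0.08 ± 0.53 at P6 and -0.08 ± 0.53 at P30, and Srebf2 had 0.01 ± 0.62 and -0.58 ± 1.16, a difference of 0.59 that was smaller than the spread of its cells. Scap, the SREBP escort, differed by -0.55, with 1 probe set at -1.85 and the other at 0.75. Transcript ratios say nothing of how much SREBP protein was processed.

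The INSIG genes differed in opposite directions. Insig1, a target of SREBP as well as its anchor, had log2 ratios of -0.24, 0.18, 0.00, 0.20 and -0.60 at P6 and -2.40, -2.49, -1.15, -0.34 and -1.34 at P30. Of the P30 cells, 4 lay below every P6 cell and cell 4 lay among them, and the difference was 1.45 (2.73-fold). Insig2, an anchor whose gene is not known as an SREBP target, lies at chr1:121304353-121332662 and had 0.04, -1.10, 1.42, 0.36 and -0.64 at P6 and 1.38, 4.75, 4.09, 1.71 and 2.60 at P30.

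Insig2 was 7.41-fold higher at P30, a difference of -2.89, and all 3 of its probe sets were over 3-fold higher at P30 (-4.21, -2.26 and -2.20). P6 cell 3 alone overlapped, lying just above P30 cell 1. The largest probe set difference, -4.21, came from ratios of 143.7, 120.3 and 70.4 in P30 cells 2, 3 and 5, whereas P30 cells 1 and 4 had 1.35 and 1.23, close to the P6 cells (0.676 to 1.27). Both other sets were above 1 in all 5 P30 cells. Insig2 kept its direction at over 3-fold with each cell left out and under all 10 other alternatives.

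In the fatty acid branch 6 of 9 genes had a higher mean at P6 and the median difference was 0.21, so the branch as a whole lay near the 0.05 of all genes. The cells overlapped, with branch medians of -0.74 to 0.08 at P6 and -1.20 to 0.44 at P30. The differences were spread widely, from 2.63 for Scd1 to -1.62 for Scd2. The core enzymes did not move together. Acly, which supplies cytosolic acetyl-CoA, differed by 0.02, and Fasn, the fatty acid synthase, by 0.21, while Acaca, the carboxylase that makes malonyl-CoA, was higher at P6.

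Acaca had log2 ratios of -0.74, -1.54, 0.49, -0.23 and -0.52 at P6 and -1.88, -3.36, -0.17, -3.44 and -2.19 at P30. P30 cell 3 lay among the P6 cells and the other 4 lay below them. The difference was 1.70 (3.25-fold), with probe sets at 2.42 and 0.98.

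Elovl6, which lengthens palmitate to stearate, was the other member whose ages did not overlap. It had -0.33, -1.31, 1.17, 1.71 and -1.001 at P6 and -3.11, -1.57, -1.96, -2.62 and -2.44 at P30, a difference of 2.39 (at least 5.23-fold). P6 cell 2 and P30 cell 2 were the closest cells of the ages. Of its 3 probe sets, 2 were over 3-fold higher at P6 (at least 4.63, and 3.58) and the third, the least variable, went the other way at -1.06.

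Scd1 and Scd2 encode stearoyl-CoA desaturases, of which Scd2 is the main form of the young brain. They differed in opposite directions. Scd1 had log2 ratios of 1.17, -1.32, -2.28, 1.53 and -0.25 at P6 and -3.18, -1.73, -3.81, -2.62 and -2.95 at P30. Of the P6 cells, 3 and 2 were lowest and only cell 3 overlapped P30 cells, and the difference was 2.63 (at least 6.19-fold). Its probe sets were at no less than 3.90 and 1.36, each with 1 P30 cell at the lower limit. In the set at 1.36 that was P30 cell 3, and the other P30 cells lay between -0.68 and 0.31, beside -0.51 to 0.18 at P6. In the set at 3.90, P30 cell 3 was instead the highest P30 cell, at -0.98. The difference of Scd1 thus came mainly from that set.

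Scd2 had log2 ratios of -0.89, -1.39, 2.50, -0.12 and -0.26 at P6 and 1.64, 0.07, 2.71, 1.28 and 2.23 at P30. P6 cell 3 lay among the P30 cells and the others below them, and the difference was -1.62 (3.08-fold higher at P30). It came mainly from 1 of 3 probe sets, at -3.59, with ratios of 175 in P6 cell 3, and 187 and 147 in P30 cells 3 and 5. The other 2 were at -1.05 and -0.23. Scd2 dropped under 3-fold without P6 cell 1, 2 or 5, and without P30 cell 3 or 5.

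The desaturases Fads1 and Fads2 and the elongase Elovl5 make long polyunsaturated fatty acids. Fads1 had -0.30 ± 0.38 at P6 and 0.80 ± 0.80 at P30, a difference of -1.10 (2.14-fold higher at P30) that lay in 1 probe set at -2.003, beside -0.20 in the other. Elovl5 differed by -0.41 and Fads2 by 0.28, both under the pooled SD of the cells.

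**Figure D4:**
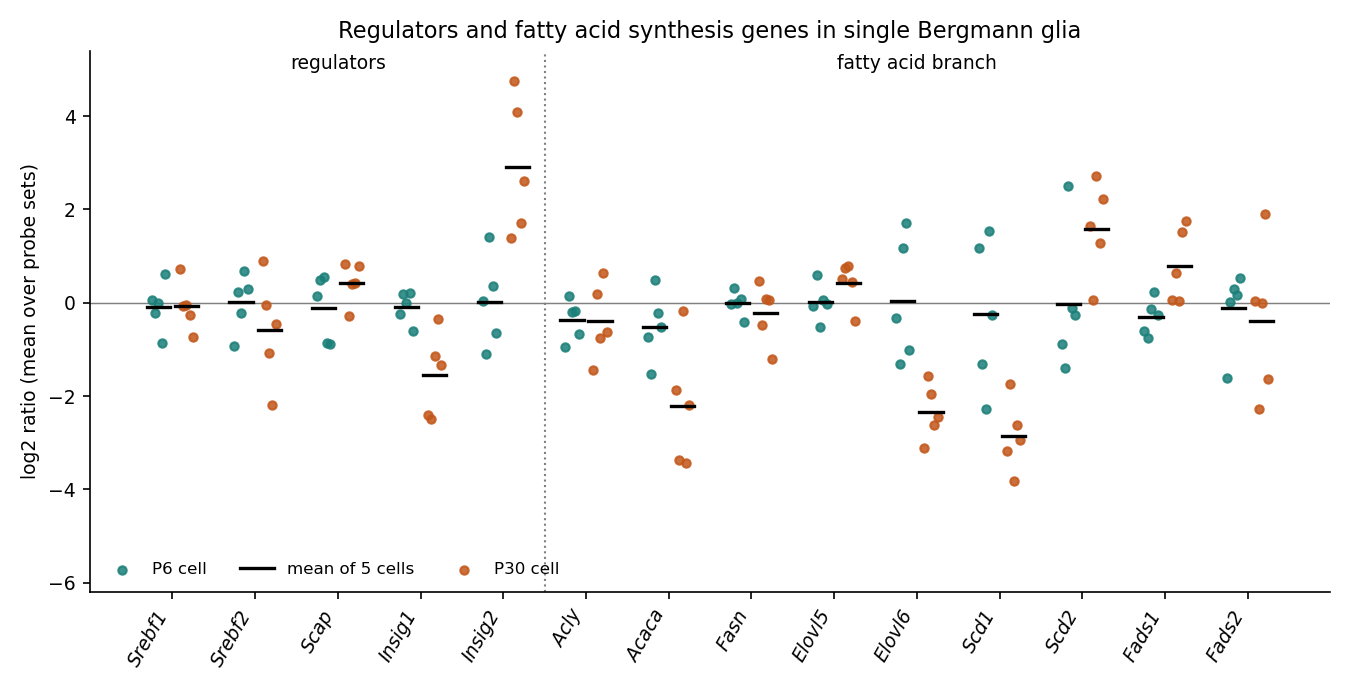
Log2 ratio of the 5 regulators (left of the dotted line) and the 9 fatty acid genes (right) in each cell (y axis). Points are single cells, P6 on the left and P30 on the right of each gene, and bars are means of 5 cells. Insig2 and Scd2 are higher at P30, Elovl6 has no overlap between ages, and Srebf1 and Fasn differ by -0.01 and 0.21.

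A list of 61 genes that supply, regulate or use the pathway was set beside the members, of which 54 were measured. Past 3-fold lay 5 in each direction, beside 9.39% of all genes towards P6 and 4.93% towards P30, and the median difference of the list was 0.21. All 7 genes that supply acetyl-CoA and NADPH had a higher mean at P6, with a median of 0.89 and 1 over 3-fold. Their cells overlapped: the median over the list was -2.54 in both P30 cells 2 and 4, but 0.46, 0.08 and -0.35 in P30 cells 1, 3 and 5, which lay among the P6 cells (-0.74 to 0.55). The 9 genes of SREBP processing and sensing had a median of 0.02, and the 5 of the isoprenoid branches 0.09, with none over 3-fold in the latter.

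Of 20 other fatty acid enzymes measured, 8 had a higher mean at P6, beside 52.4% of all genes, and their median difference was -0.36. At P30, 4 of the 20 were over 3-fold higher, beside 4.93% of all genes, and 4 had every P30 cell above every P6 cell, beside 1.41%. Elovl2, which lengthens polyunsaturated fatty acids, lay between -1.30 and 1.27 at P6 and between 1.51 and 2.90 at P30, a difference of -2.05 (4.15-fold higher at P30). Acsl3, a ligase that activates long-chain fatty acids, lay between -0.87 and 0.62 at P6 and between 1.30 and 3.87 at P30, a difference of -2.71 (6.54-fold higher at P30). Neither gene's ages overlapped.

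Among the 10 genes of sterol conversion and transport, 1 had every P6 cell above every P30 cell, beside 2.13% of all genes. In the other direction, 1 had every P30 cell above every P6 cell, beside 1.41%. Over 3-fold higher were 2 at P6, beside 9.39% of all genes, and 1 at P30, beside 4.93%. Cyp46a1, which hydroxylates cholesterol at carbon 24 for its exit from the brain and is known mainly from neurons, had log2 ratios of -2.10, 0.00, 0.95, -0.04 and 0.89 at P6 and 6.25, 5.09, 1.47, 1.59 and 5.68 at P30. It was 16.8-fold higher at P30, with 3 P30 cells far above the other 2. Stard3, which moves cholesterol out of late endosomes, lay between -0.19 and 1.27 at P6 and between -4.37 and -0.41 at P30, a difference of 2.28 (4.86-fold). Cyp46a1, Elovl2 and Stard3 rest on 1 probe set each. The median over the 8 neuronal markers lay between -0.76 and -0.10 in P6 cells and between -0.84 and 0.53 in P30 cells. It was highest in P30 cell 5 and at -0.64 in P30 cell 4. The neuronal marker Snap25 spread from -3.81 to 3.21 at P6 and from -3.41 to 3.83 at P30, highest in P30 cells 5 and 4. Rbfox3, another of these markers, was highest in P30 cell 5 (2.56) but had its lowest P30 value in cell 4 (-0.42). The part of neuronal RNA in the differences of the sterol conversion and transport genes was not tested.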

How the data were processed

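Of each of 10 cells, 5 at P6 and 5 at P30, cDNA amplified by RT-PCR was hybridised to 1 array. The deposited values are linear ratios: according to the authors' methods and the labels, scans were processed with RMA in GeneSpring GX, values under 0.01 were set to 0.01, and each array and then each probe set was divided by a median. The version of RMA and a genome build are not given in the sources used here. Neither levels nor detection calls can be had from ratios.

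Of 45101 probe sets, 43608 had no blank and were used, 10 values of 0 were set to 0.01, and log2 was taken. The other 1493 had a blank, and 1013 of them lacked any P6 value but had P30 values. The array annotation gave 34958 probe sets 1 gene, 932 several and 9211 none. Symbols were updated through Entrez IDs to GRCm38.p6. Log2 ratios were averaged over the probe sets of a gene and then over cells. Groups came from the sample titles. Ages were compared by the difference of means, a 3-fold size rule and overlap of cells, without tests, since the labels name no animal. Python 3.11.15, NumPy 2.4.6, pandas 2.3.3 and Matplotlib 3.10.9 were used, and the steps were tested on simulated data.

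The members and lists, the size rule and the alternatives were chosen with earlier results of these data known. All members are named. Of the related lipid genes, those over 3-fold without overlap are named, and of the markers, at most the defining ones. The alternatives were median scaling, scaling to the hybridisation spikes, a floor of 0.1, probe sets with a cell at the floor left out, medians over cells, arithmetic means, probe sets ending in _x_at, _s_at or _a_at left out, the least variable probe set of each gene, a 2-fold rule and each cell left out. The median over probe sets and the removal of P30 cells 4 and 5 were chosen after seeing the data, as was the gap between the ages in the sterol branch.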

Additional observations from a re-analysis of the deposited data

Results flagged for a closer look

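In 6 of the 64 sets of 5 cells of 1 age examined for the members, 1 cell lay far from the other 4. The rule used flags about 1 in 20 groups if values are independent and normally distributed, which ratios with a lower limit need not be. The share flagged over all genes was not computed, so whether 6 of 64 is many cannot be told. Mvd was at -3.60 in P6 cell 2, against -0.04 to 0.86 in the other P6 cells. Sqle was at -1.03 in P6 cell 5, against -0.18 to 0.12. Hsd17b7 was at 0.90 in P6 cell 3, against -0.37 to -0.01, and at 2.04 in P30 cell 2, against -0.76 to -0.02. The latter value came from 1 of its 4 probe sets, with a ratio of 205.9 in that cell. Elovl5 was at -0.39 in P30 cell 5, against 0.44 to 0.78, and Fads2 at -1.61 in P6 cell 1, against 0.02 to 0.52.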

How the results depend on the processing

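No paired analysis was possible because the replicate numbers only name cells and no test was made. The sterol median difference kept its direction under every alternative, from 0.65 (arithmetic means) to 1.23 (hybridisation spikes), and from 0.75 to 1.19 with 1 cell left out. The fatty acid median, -0.03 to 0.38 with 1 cell left out (lowest without P30 cell 5), was 0.49 on the spikes, -0.10 with arithmetic means and -0.08 without _x_at, _s_at and _a_at sets. The regulator median, -0.18 to 0.20 with 1 cell left out, lay between -0.28 (without P30 cells 4 and 5) and 0.27 (spikes) under the others. The count of sterol genes over 3-fold at P6, 6 as reported and 4 to 7 with 1 cell left out, was 8 on the spikes, 2 with a floor of 0.1, 3 without probe sets at the floor and 3 with the least variable probe set. That of fatty acid genes, 2 to 3 with 1 cell left out, was 1 and 0 under the latter 2 settings. Members over 3-fold at P30, 1 to 2 with 1 cell left out, were 1 on the spikes, with arithmetic means, with the median over probe sets and without P30 cells 4 and 5, where Insig2 remained. Members with every P6 cell above every P30 cell, 2 as reported, were 1 with median scaling, without _x_at, _s_at and _a_at sets and with the least variable set, 4 on the spikes and without P30 cells 4 and 5, and 0 with a floor of 0.1, without probe sets at the floor and with the median over probe sets. With 1 cell left out they were 2 to 4, highest without P6 cell 2 or 5. The sterol gap between ages was -0.091 without probe sets at the floor and 0.081 with the median over probe sets. With 1 cell left out it was 0.25 to 0.63, highest without P30 cell 1. The cause of these changes was not tested.

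The yardstick for single members was the pooled SD over cells, which was as wide as 2.53 for Mvd. Leaving out 1 of 5 cells cannot move a difference by that SD, so those values were bound to stay within it. The count that follows is therefore no measure of stability. Of 637 values of single members under the alternatives, 620 stayed within 1 pooled SD of the reported value. Signs changed in 45, over 11 members, of which 7 moved by more than that SD: Elovl6, a gene over 3-fold as reported, at -1.06 with the least variable probe set, and, under 3-fold as reported, Cyp51 (-0.78), Fdft1 (0.45), Hsd17b7 (1.29) and Mvk (0.88) with that set, Cyp51 at -0.63 without sets at the floor and Mvk at 0.88 without suffix sets. With 1 cell left out, Fdps, Nsdhl, Stard4, Elovl6, Scd1 and Insig2 stayed over 3-fold in 10 of 10 cases, Idi1 in 9, Tm7sf2 in 8, Acaca in 7, Msmo1 in 6 and Scd2 in 5, while Mvd passed it in 3 and Hmgcs1 and Insig1 in 1 each. Under the 10 other alternatives at 3-fold, Nsdhl and Insig2 kept their call in 10, Stard4 in 9, Elovl6 and Scd1 in 8, Fdps and Tm7sf2 in 7, Acaca and Scd2 in 5, and Idi1 and Msmo1 in 4, while Mvd and Hmgcs1 passed in 3 and Insig1 in 2. The related genes over 3-fold at P6 were 3 to 9 with 1 cell left out, lowest without P30 cell 4 and highest without P30 cell 1 or 3. Leaving out sets at the floor gave no value for Scd1, and leaving out sets with a suffix gave none for Pmvk and Srebf1. Signal over background cannot be had from ratios, so low signal and absence are not separated here.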

Other observations

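Besides the genes described, 4 related genes passed 3-fold towards P6 and 2 towards P30, with overlapping cells; they are named after their values were seen. Lbr, a lamin receptor with sterol reductase activity, differed by 5.15, with ratios at the lower limit at both ages, so that its size is no bound. Mcat of mitochondrial fatty acid synthesis differed by 2.35 and Pgd of the pentose phosphate pathway by 2.33. The NF-Y subunit Nfyb differed by 1.69, also with ratios at the lower limit at both ages and so with no bound on its size. At P30, Acsl6, a ligase related to Acsl3, was higher (-2.57), as was Hsd17b12 of fatty acid elongation (-1.75). Hacd3 of the elongation cycle (-1.22) and Fads6 (-1.25) were under 3-fold, but every P30 cell lay above every P6 cell.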
